A study of Mus musculus with 32 samples.

Results

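Of 2460418 autosomal 1 kb bins, 10605 (0.431%) carried postnatal calls of histone H3 lysine 9 trimethylation (H3K9me3) in male germ cells heterozygous for Morc1. These bins were not called in embryonic germ cells or in postnatal germ cells without Morc1. A bin, counted from position 0 of the chromosome, counted as called in a list if peaks of that list filled 50% or more of it. Members were chosen by these calls in all 8 lists. The set holds bins that were called in the heterozygous lists of both postnatal day 0 (P0) and day 3 (P3), in neither knockout list of these days, and in none of the 4 lists of the embryonic stages E13.5 and E16.5, named for days of gestation. Adjacent bins were joined into 6292 runs. The calls that define the set are therefore a description of it and no finding. No list lies between E16.5 and P0, so a gain may date from before birth. Here, gained after birth means called at P0 and P3 and in no embryonic list. The mirror set, bins gained after birth in the knockout and not called after birth in the heterozygote, held 9180 bins (0.373%) and is called the KO-only gains. The 21627 bins gained after birth in both genotypes are called the shared gains.

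The study profiled H3K9me3 by ChIP-seq in male germ cells from testes of Mvh-Venus transgenic mice, at the gonocyte stages E13.5, E16.5, P0 and P3, and the series asked what loss of Morc1 does to gonocyte chromatin. Each stage had Morc1 (+/-) animals (het) and Morc1 (-/-) animals (KO), so the controls carry 1 mutant allele and are not wild type. The labels list 32 samples in 16 groups of 2, of which 16 samples used an H3K9me3 antibody from Active Motif, and the other 16, made with an antibody to histone H3 (MBL #MABI0301), entered nothing here. Each genotype and stage was represented by 1 peak list without replicates, peak heights or p-values, so no test between genotypes was possible, and differences between the sets are set beside their spread over the 19 autosomes. How many animals were pooled, how the transgene was used to isolate the cells, and the type of Morc1 allele are not given in the sources used here. Peak lists hold no expression, so the labelled cell type could not be checked against its markers.

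H3K9me3 is a mark of constitutive heterochromatin. It is placed by SETDB1, SUV39H1 and SUV39H2 and keeps retrotransposons and many gene-poor regions silent. MORC1 is a nuclear ATPase of germ cells, best known for silencing retrotransposons in the male germ line at the time when DNA methylation is laid down again. Gonocytes, also called prospermatogonia, are the male germ cells between sex determination and the first spermatogonia. They stop dividing in the fetal testis and resume division after birth.

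Transcription starts were few among the members. The RefSeq table (GRCm38.p6, which is mm10, the build named in the submitters' processing notes) lists 31396 autosomal windows of 300 bases, each from 250 bases before to 50 bases after a start. Of these starts, 41 lay in member bins. Promoter windows from 5 genes are shown because they carry the gain at named genes and because they differ widely in base composition. All were free of KO peaks and of embryonic peaks and lay wholly in het peaks at P0 and P3. Hmox2 encodes the constitutive heme oxygenase (chr16:4756696-4756995, plus strand). 4930568E12Rik (chr9:13105806-13106105, minus strand) and 4930481A15Rik (chr19:5406565-5406864, plus strand) are long non-coding RNA genes. In the first 3 sequences capitals mark CG dinucleotides. Olfr1298 (chr2:111645946-111646245, minus strand) and Olfr502 (chr7:108523899-108524198, minus strand) encode olfactory receptors, and in these 2 sequences capitals mark TATAAA or its reverse complement TTTATA. Each sequence is written 5′ to 3′ on the strand of its gene.
Hmox2: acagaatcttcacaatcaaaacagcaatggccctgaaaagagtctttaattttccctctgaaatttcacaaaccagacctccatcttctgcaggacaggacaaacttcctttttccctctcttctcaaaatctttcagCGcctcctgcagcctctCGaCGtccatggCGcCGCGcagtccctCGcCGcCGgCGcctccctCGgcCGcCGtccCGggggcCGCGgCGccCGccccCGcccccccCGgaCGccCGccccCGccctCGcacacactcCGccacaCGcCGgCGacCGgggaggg
4930568E12Rik: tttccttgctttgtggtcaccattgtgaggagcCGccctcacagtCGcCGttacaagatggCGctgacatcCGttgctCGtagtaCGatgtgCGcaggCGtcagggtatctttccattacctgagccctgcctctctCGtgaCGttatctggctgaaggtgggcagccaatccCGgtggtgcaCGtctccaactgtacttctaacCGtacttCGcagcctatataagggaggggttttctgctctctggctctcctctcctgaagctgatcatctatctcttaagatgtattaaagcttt
4930481A15Rik: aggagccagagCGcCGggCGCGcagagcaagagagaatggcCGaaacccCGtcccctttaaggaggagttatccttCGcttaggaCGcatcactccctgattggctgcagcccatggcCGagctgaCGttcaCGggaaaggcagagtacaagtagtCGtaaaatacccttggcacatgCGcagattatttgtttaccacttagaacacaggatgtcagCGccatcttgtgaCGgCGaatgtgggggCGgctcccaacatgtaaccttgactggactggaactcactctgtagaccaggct
Olfr1298: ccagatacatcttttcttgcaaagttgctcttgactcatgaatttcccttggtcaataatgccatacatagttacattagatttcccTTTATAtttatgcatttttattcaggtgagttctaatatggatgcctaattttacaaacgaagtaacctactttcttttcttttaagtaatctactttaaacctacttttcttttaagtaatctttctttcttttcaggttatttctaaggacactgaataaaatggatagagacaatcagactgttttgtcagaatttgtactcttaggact
Olfr502: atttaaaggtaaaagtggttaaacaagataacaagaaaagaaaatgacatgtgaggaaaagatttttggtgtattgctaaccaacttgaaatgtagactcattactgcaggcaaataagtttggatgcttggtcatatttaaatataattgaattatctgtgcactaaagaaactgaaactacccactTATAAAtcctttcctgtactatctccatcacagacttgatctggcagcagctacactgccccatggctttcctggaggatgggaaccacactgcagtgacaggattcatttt

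The Hmox2 window held 29 CG dinucleotides in 300 bases and a GC content of 64.0%. It lay in a run of 3 kb (chr16:4756001-4759000), of which het peaks covered 3 kb at P0 and 3 kb at P3, and peaks of the other 6 lists covered 0. Of the 3 starts that RefSeq lists for Hmox2, 2 lay in this run, and the other of them had 18 CG in its window. The window of 4930568E12Rik held 15 CG, and its run of 3 kb was covered over 3 kb at P0 and 2.98 kb at P3 in het. The window of 4930481A15Rik held 17 CG, and its run of 2 kb was covered whole in het at both days, with 0.386 kb called in the E13.5 KO list. Olfr502 had no CG in its window and Olfr1298 had 1. The run over Olfr502 spanned 4 kb (chr7:108522001-108526000) and was covered whole at P0 and P3. The run over Olfr1298 spanned 5 kb (chr2:111643001-111648000), with 4.58 kb covered at P0 and 4.53 kb at P3.

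Over all 41 starts, the windows were poor in CG, with a median of 2 CG dinucleotides per window against 7 over all autosomal windows. The median was 3 in the KO-only gains, 3 in the shared gains and 2 in bins with calls from het and KO at both days. CG-rich windows nevertheless occurred. Windows with at least 15 CG, a limit chosen after the values were seen, numbered 5 of 41 (12.2%) in the members, 1 of 86 (1.16%) in the KO-only gains, 1 of 161 (0.621%) in the shared gains and 9 of 1044 (0.862%) in the bins with calls from het and KO at both days. They made up 35.2% of all windows. Of the 5 windows, 2 belong to Hmox2 and overlap each other, and the window of A230004M16Rik, with 19 CG, had no base in a het peak although its start lay in a member bin.

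TATAAA was found on either strand in 13 of the 41 windows (31.7%) and in 13.6% of all windows. The share was 16.3% in the KO-only gains, 17.4% in the shared gains and 28.9% in bins with calls from het and KO at both days. The palindrome CACGTG was found in 4.88% of member windows and 7.14% of all windows, and TGACGT, on either strand, in 4.88% and 7.57%. These are matches of letters and not sites of binding. Of the 41 windows, 14 (34.1%) shared a stretch of 24 bases, on either strand and with at least 12 distinct trinucleotides, with the window of a gene on another chromosome or over 100 kb away. That share was 5.81% in the KO-only gains, 6.83% in the shared gains, 20.9% in bins with calls from het and KO at both days and 10.1% of all windows. This comparison was added after the windows had been seen. 4930481A15Rik shared such a stretch with 31 genes, Olfr502 with 7, 4930568E12Rik with 6, and Hmox2 and Olfr1298 with 0. The repeat content of the members was not measured, since no genome sequence or repeat annotation was used here.

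The deposited lists set the scale of these calls. On the autosomes they held 50191 to 82082 peaks in het and 55136 to 89020 in KO, and after birth KO had the larger lists, with 89020 against 82082 peaks at P0 and 82590 against 77632 at P3. Read depth is unknown. At P0, 12.9% of the bins called in either genotype were called in het and not in KO, and 17.0% in KO and not in het. At P3 these shares were 12.9% and 20.2%.

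Het germ cells gained 37460 autosomal bins after birth, meaning bins called at P0 and P3 and in no embryonic list. Of these gains, 28.3% (95% Wilson interval 27.9 to 28.8%) were called in KO at neither day and are the members. Over the autosomes this share ran from 20.6% to 31.3%. Another 7.11% were called in KO at P0 and not at P3, 6.84% at P3 and not at P0, and 57.7% at both days. KO germ cells gained 46235 bins, of which 19.9% (19.5 to 20.2%, autosomes 18.4 to 22.6%) were called in het at neither day, 15.4% at P0 only, 18.0% at P3 only and 46.8% at both. The share missing at both days was the higher in het, and the share present at 1 of the 2 days was the higher in KO, whose lists were larger. The intervals treat bins as independent, which neighbouring bins are not, and cover counting error only.

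**Figure D1:**
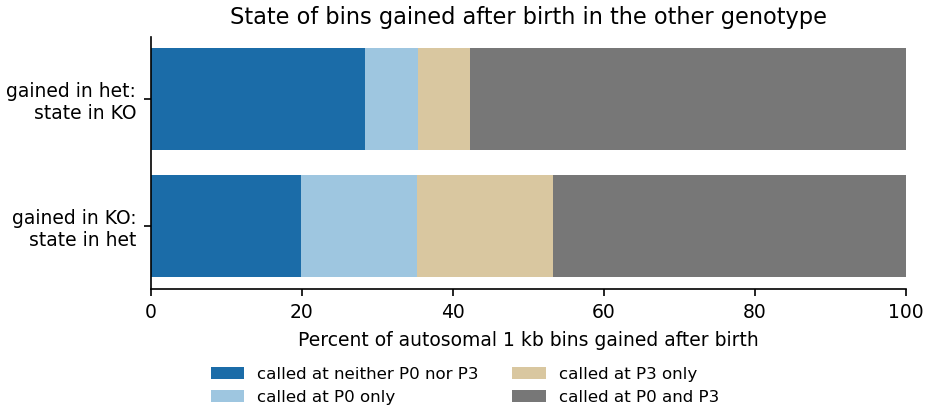
State, in the other genotype, of autosomal 1 kb bins gained after birth in het (upper bar) and in KO (lower bar), as percent of the gained bins, with 1 list per genotype and stage. The darkest blue segment of the upper bar is the set described here, 28.3% of the het gains, against 19.9% in the lower bar.

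The members were filled with called sequence in het and nearly empty in KO. Het peaks covered a mean of 923.2 bp of each 1000 bp bin at P0 and 898.5 bp at P3. The mean for KO peaks was 27.8 bp at P0 and 21.6 bp at P3. Embryonic peaks covered least in E13.5 het, with a mean of 6.11 bp, and most in E16.5 het, with 28.8 bp. These values follow from the rule. The mirror set, chosen with the genotypes exchanged and from larger KO lists after birth, is set beside them as a description. In the KO-only gains, KO peaks covered 824.6 bp at P0 and 862.3 bp at P3, and het peaks covered 105.0 bp and 81.8 bp.

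Most members had no called base in KO. At P0 and P3 together, 9095 member bins (85.8%, Wilson interval 85.1 to 86.4%) held no base of a KO peak. In the KO-only gains, 4884 bins (53.2%, 52.2 to 54.2%) held no base of a het peak. Het peaks covered the whole bin at both days in 5598 members (52.8%), and KO peaks did so in 26.5% of the KO-only gains. No embryonic peak touched 8945 members (84.3%), 80.2% of the KO-only gains and 72.5% of the shared gains. With the requirement that no base of a bin lie in a peak of the other genotype, the number of members per KO-only gain moved from 1.16 to 1.86, and with peaks of the other genotype widened by 1 kb on each side it was 2.16.

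Bins close to the limit of 500 bp were a small part of the set. Within 50 bp of it, 662 members had a lower het coverage of P0 and P3 just inside (median 524 bp), and 822 bins just outside had a median of 473 bp. The higher KO coverage lay just inside in 241 bins (median 477 bp) and just outside in 281 (523 bp). The highest embryonic coverage lay just inside in 215 (477 bp) and just outside in 248 (524 bp).

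Member bins stood in longer runs than the mirror set. Of the 6292 runs, 3591 (57.1%) were single bins, 1598 had 2 bins and 1103 (17.5%, Wilson interval 16.6 to 18.5%) reached 3 kb. The KO-only gains formed 7923 runs from fewer bins, of which 86.5% were single and 153 (1.93%, 1.65 to 2.26%) reached 3 kb. The shared gains lay between, with 71.0% single bins and 7.18% (6.78 to 7.60%) of 15531 runs at 3 kb or more. Over single autosomes the share of runs of 3 kb or more ran from 12.2% to 22.3% in the members, from 0.271% to 3.74% in the KO-only gains and from 5.48% to 8.55% in the shared gains, so the 3 sets did not overlap. Runs of at least 3 kb held 36.0% of the member bins, 5.37% of the KO-only gains and 17.7% of the shared gains. The longest run was 8 kb in the members, 6 kb in the KO-only gains and 8 kb in the shared gains. With the longer 50% of each list, the number of member runs of at least 3 kb was 1859. Run length is made from the calls the rule used and is a description.

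**Figure D2:**
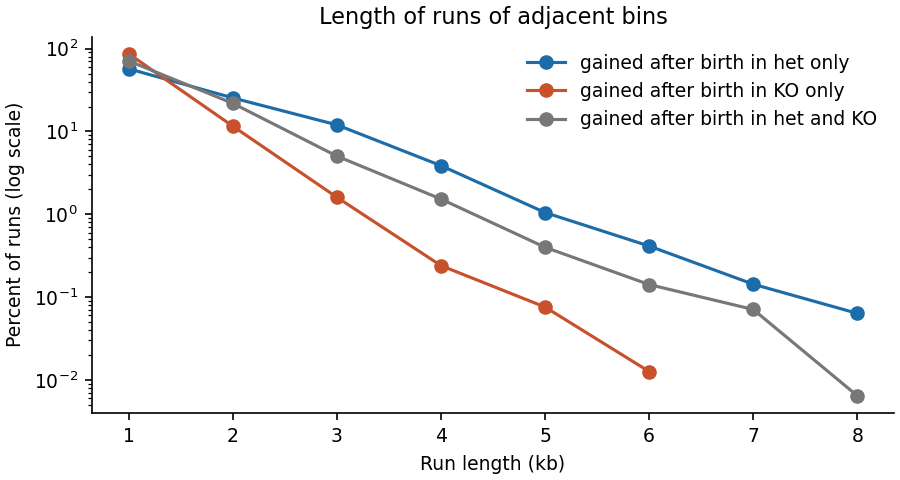
Length of runs of adjacent 1 kb bins (horizontal axis, kb) against the percent of runs of each set with that length (vertical axis, log scale). Members (blue) lie above the KO-only gains (orange) at every length from 2 kb upward, and no KO-only run exceeds 6 kb.

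The het peaks under the runs were then examined whole, including the parts outside the member bins. In 3231 of the 6292 runs (51.4%, autosomes 44.4 to 58.7%), the het peaks that overlapped the run touched no KO peak of the same stage. In the KO-only gains the KO peaks were free of het peaks in 2462 runs (31.1%, autosomes 24.8 to 36.1%). Het peaks under 2989 member runs (47.5%) touched no embryonic peak of either genotype. Both held for 2321 runs (36.9%, Wilson interval 35.7 to 38.1%), which are called stand-alone. In the KO-only gains 2243 runs (28.3%) stood alone by the mirror definition.

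Stand-alone gains in het were the longer ones. Het peaks under stand-alone runs spanned a median of 2377 bp at P0 (quartiles 1630 and 3193 bp) and 1851 bp at P3 (1255 and 2720 bp). The medians of KO peaks under stand-alone KO-only runs were 1262 bp and 1287 bp. Spans of at least 3 kb were found at 681 stand-alone member runs (29.3%) at P0 and 426 (18.4%) at P3, against 66 (2.94%) and 113 (5.04%) in the KO-only gains. Over all member runs, the span of the het peaks was longer at P0 than at P3 in 4129 (65.6%), with medians of 3665 and 3014.5 bp. The order of the days was the opposite in the other sets, with P0 the longer in 40.0% of KO-only runs and 39.1% of runs of shared gains. Across all peaks, the median peak length was 2482 bp at P0 and 2556 bp at P3 in het, and 2346 and 2575 bp in KO.

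Runs of members touched sequence called in both genotypes at both days less often than runs of KO-only gains or shared gains. Of the 6292 runs, 897 (14.3%, autosomes 8.90 to 17.1%) touched a bin called in het and KO at P0 and P3, against 34.5% of KO-only runs and 47.6% of runs of shared gains. This value depended on the rule for KO calls. It was 3.80% when no base of a member could lie in a KO peak and 0 when KO peaks were widened by 1 kb. Over the autosomes, 194226 of 2460418 bins were called in het and KO at both days. The share of runs at random places that would touch such a bin was not computed. A bin called in at least 1 embryonic list was touched by 2624 runs (41.7%), against 36.4% and 51.6%.

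The bins on either side of the runs numbered 12584. No list of either genotype called 5469 of them (43.5%). Another 2944 (23.4%) were called in het at 1 of the 2 days, with KO at neither and no embryonic call. A further 1567 (12.5%) were called in het at both days and in KO at neither, with an embryonic call, so that the run went on into bins that differed between the genotypes after birth but were marked before. In the KO-only gains the equivalent neighbours made up 1.95%. Bins called in both genotypes at both days made up 7.29% of the neighbours of members and 17.6% of those of KO-only gains. Bins called in het at both days and in KO at 1 made up a further 10.6% of the neighbours of members. Bins called in KO at both days and in het at 1 made up 13.6% of those of KO-only gains.

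Farther out, calls in het remained above those in KO at P0 and P3. In the bin next to the run, 48.9% of positions were called in P0 het and 15.2% in P0 KO, and 37.4% in P3 het and 11.9% in P3 KO. At a distance of 10 bins, P0 het had 19.7% and P0 KO 15.3%, and P3 het had 16.2% and P3 KO 13.55%. Over all autosomal bins the order was the reverse, with 12.6% in het and 13.2% in KO at P0 and 11.3% and 12.3% at P3. P0 KO varied little with distance from the members, with 15.2%, 15.6%, 13.3% and 15.3% at 1, 2, 5 and 10 bins. At E13.5 KO was the higher beside the members, with 5.46% against 4.32% in het at 1 bin and 6.68% against 5.93% at 10 bins. At E16.5 het was the higher, with 16.9% against 11.8% in KO at 1 bin and 14.5% against 12.8% at 10 bins. Over all autosomal bins these orders were the same, with 6.49% in het and 7.40% in KO at E13.5. The values at E16.5 were 11.9% and 10.9%. Beside the KO-only gains the genotype without the gain did vary, with P0 het at 28.5%, 21.6% and 13.3% at 1, 2 and 5 bins.

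**Figure D3:**
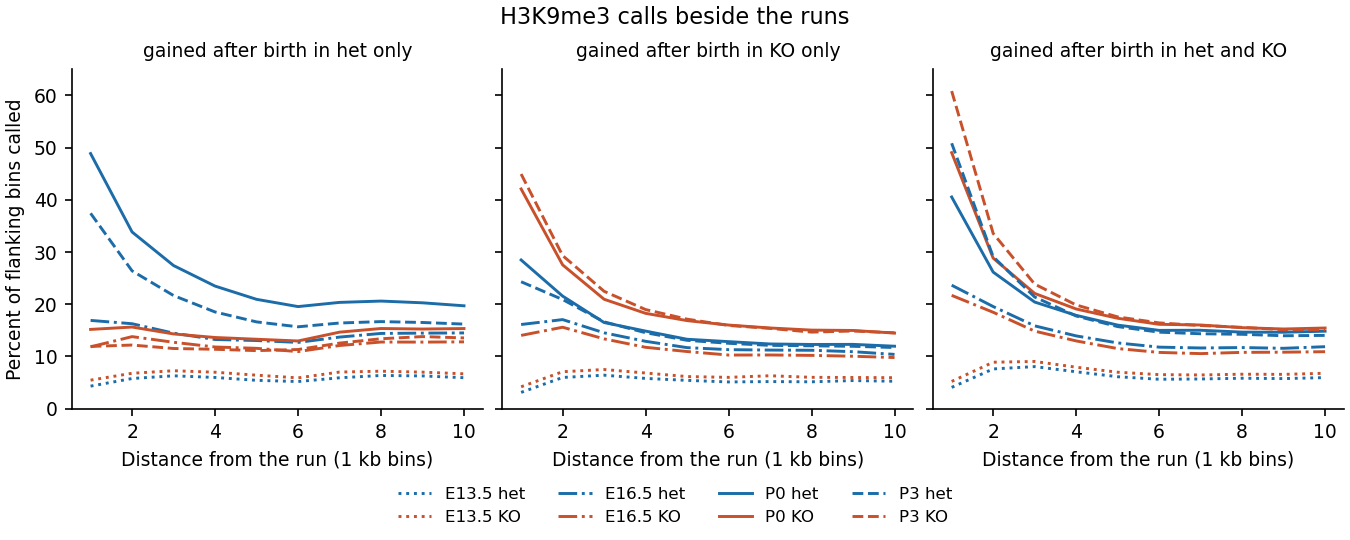
Percent of flanking 1 kb bins called in each of the 8 lists (vertical axis) against distance from the run in bins (horizontal axis), for members, KO-only gains and shared gains; blue lines are het, orange lines KO, and line style gives the stage. Beside members the P0 het line starts at 48.9% and the P0 KO line at 15.2%, whereas beside KO-only gains P0 KO starts at 42.1% and P0 het at 28.5%.

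Members lay mostly outside protein-coding genes. Of the 10605 bins, 2090 (19.7%, Wilson interval 18.96 to 20.48%) had their midpoint in the body of a protein-coding gene, against 35.7% of the KO-only gains, 32.5% of the shared gains and 40.0% of all autosomal bins. The member share was below each of these 3 on 19 of 19 autosomes, with a range of 11.6% to 25.4%. It was close to the 19.9% of bins with calls from het and KO at both days, a set of 194226 that includes the 21627 shared gains. Bodies of long non-coding RNA genes held 7.31% of members and 10.9% of KO-only gains, and pseudogenes held 1.00% and 0.850%. The median distance from a member, inside or outside a gene, to the nearest start or end of a protein-coding gene was 101.6 kb, against 57.5 kb for KO-only gains, 57.2 kb for shared gains and 50.6 kb over all bins. It was 106.7 kb for bins with calls from het and KO at both days, so the distance, like the share in genes, was close to that of the wider set.

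The share of het gains missing in KO rose with distance from genes. Of the het gains inside protein-coding genes, 2090 of 10376 (20.1%, Wilson interval 19.4 to 20.9%) were missing in KO at both days. Outside genes, up to 100 kb from one, the share was 3913 of 14284 (27.4%, 26.7 to 28.1%), and over 100 kb away it was 4602 of 12800 (36.0%, 35.1 to 36.8%). The share was lower inside than outside genes on 19 of 19 autosomes. The KO gains missing in het did not follow this order, with 20.5%, 19.4% and 19.6% in the same 3 classes, and a lower share inside genes on 5 autosomes. Inside genes the 2 shares were thus nearly equal, and the difference between them lay outside genes. In counts, members were fewer than KO-only gains inside genes, with 2090 against 3275 bins, and more outside, with 8515 against 5905.

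**Figure D4:**
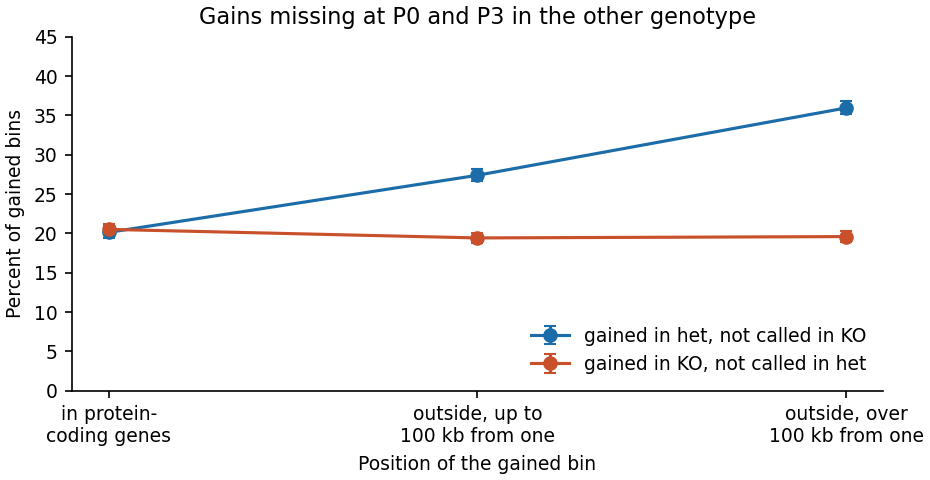
Percent of gained bins that were called at neither P0 nor P3 in the other genotype (vertical axis), by position relative to protein-coding genes (horizontal axis); points are percents over all autosomes and bars are Wilson intervals at 95% for counting error alone. The het gains (blue) run from 20.1% in genes to 36.0% over 100 kb from one, and the KO gains (orange) stay between 19.4% and 20.5%.

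Chromosomes differed in the same sense. Chromosome 1 had the highest density, with 5.30 members per 1000 bins, and chromosome 11 the lowest, with 2.62, a ratio of 2.03. The KO-only gains ranged from 3.16 to 4.34 per 1000 bins, a ratio of 1.37. Members outnumbered KO-only gains on 17 of 19 autosomes. The exceptions were chromosome 11, with 319 against 414 bins, and chromosome 19, with 197 against 250. Across the 19 autosomes, member density and the number of protein-coding genes per Mb had a Pearson correlation of -0.76 and a Spearman correlation of -0.64, given as a description of chromosomes that share the same lists. For KO-only gains these were -0.44 and -0.28. On chromosome X, outside the rule, the same calls gave 520 bins gained in het only and 264 in KO only, a ratio of 1.97, and 52.7% of 986 het gains were missing in KO.

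**Figure D5:**
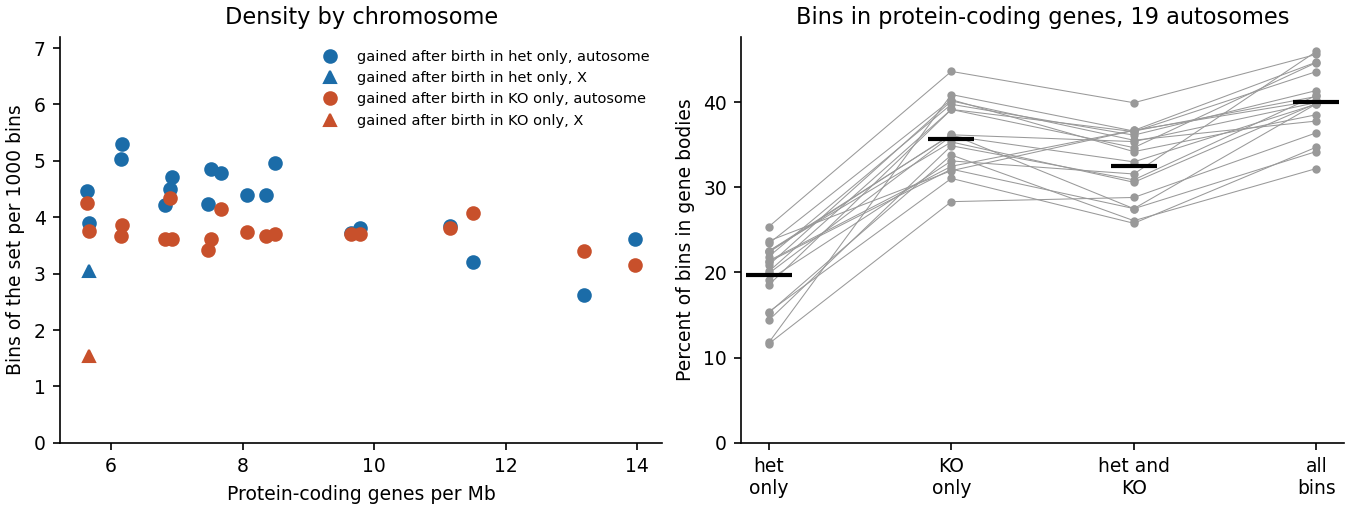
Left, bins of the set per 1000 bins (vertical axis) against protein-coding genes per Mb (horizontal axis), one circle per autosome and a triangle for X, in blue for members and orange for KO-only gains. Right, percent of bins in protein-coding gene bodies for each set, one grey line per autosome with the value over all autosomes as a black bar, which is 19.7% in members and 35.7% in KO-only gains.

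Within chromosomes the members were unevenly spread. Of 2470 windows of 1 Mb, 608 (24.6%) held no member, whereas 12.8% held no KO-only gain and 7.09% no shared gain. The ratio of variance to mean over windows was 5.42 in members, 2.35 in KO-only gains and 3.64 in shared gains. At least 20 members were found in 32 windows, at least 20 shared gains in 106, and no window held 20 KO-only gains. The highest count in a window was 34 members, 17 KO-only gains and 36 shared gains. Windows without a protein-coding gene held a mean of 5.89 members and 2.14 KO-only gains, and windows with 20 or more genes held 2.18 and 2.61. The fullest window, chr14:123000001-124000000, held 34 members and 2 KO-only gains and overlaps Nalcn, which encodes a sodium leak channel, Itgbl1, which encodes an integrin beta-like protein, and Fgf14, which encodes a fibroblast growth factor homologous factor. The window chr17:41000001-42000000, with no protein-coding gene, followed with 32, and the window chr4:91000001-92000000 with Elavl2, which encodes a neuronal and germ cell RNA-binding protein, held 31.

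The 12 longest runs, named because of their length, showed the pattern at single places. The 8 kb run at chr4:91645001-91653000 lies between Elavl2, 244.9 kb away, and Izumo3, 491.3 kb away. Het peaks covered 8 kb of it at P0 and 8 kb at P3. The length called in KO was 0 at P0 and 0.010 kb at P3, and at E16.5 0.255 kb was called in het and 0.283 kb in KO. The het peaks themselves spanned 14.2 kb at P0 and 14.3 kb at P3, so they reached past the run on both sides. A second run of 8 kb (chr9:4833001-4841000) lies 36.8 kb from Gria4, which encodes a glutamate receptor subunit, and had 0.431 kb called in P3 KO. The third (chr9:4357001-4365000) lies between Kbtbd3 and Msantd4, 25.2 and 11.6 kb away, with 8 kb called in het at P0, 7.51 kb at P3 and nothing in the other 6 lists. The fourth (chr19:21718001-21726000), between Abhd17b and Cemip2, had 7.58 kb at P0 and 7.67 kb at P3 and nothing elsewhere.

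Each of the other 8 runs spanned 7 kb. Runs of 7 kb numbered 9, and the 8 with the most base pairs called in het were taken. The one left out, at chr6:68020001-68027000, stood alone, with 6.52 kb called in P0 het, 6.55 kb in P3 het and 0 in the other 6 lists. The run at chr1:69932001-69939000 lies in Spag16, a gene for a sperm flagellum protein, and the run at chr7:50535001-50542000 lies in Nell1, a gene for a secreted protein with EGF-like repeats. They were covered whole in het at both days, with 0.136 kb in E16.5 het and 0 in KO after birth for the first, and 0.363 kb in P3 KO for the second. The run at chr7:103005001-103012000 lies between the olfactory receptor genes Olfr578 and Olfr582, 19.8 and 29.5 kb away. The run at chr15:66517001-66524000 lies 2.21 kb from Tmem71, the smallest distance among runs outside genes. Of the 12 runs, 2 stood alone, at chr16:47070001-47077000 (571.5 kb from Nectin3) and chr10:15005001-15012000 (233.5 kb from Nmbr). The first was covered over 7 kb at both days and the second over 7 kb at P0 and 6.77 kb at P3. The remaining 2 lie far from genes, at chr8:59410001-59417000 (495.7 kb from BC030500) with 0.105 kb in P0 KO, and at chr10:37722001-37729000 (583.1 kb from Marcks).

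At least 1 member bin lay in 809 of 20665 protein-coding genes (3.91%), and at least 1 KO-only gain in 1900 (9.19%). Both kinds were present in 368 genes. Genes with a member were long, with a median of 177.0 kb against 17.5 kb over all genes, and long genes hold more bins of any set. Per 1000 bins of gene body there were 2.11 members and 3.28 KO-only gains.

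The gene with most member bins was Sugct, which encodes a mitochondrial CoA-transferase, with 27 members and 7 KO-only gains. Called length in Sugct at E13.5 was 29.5 kb in het against 36.3 kb in KO, and at E16.5 it was 81.0 against 77.1 kb. At P0 het had 137.9 and KO 118.3 kb, and at P3 het had 136.8 and KO 116.4 kb. Het thus exceeded KO at E16.5, P0 and P3 and not at E13.5. Agbl4, a gene for a cytosolic carboxypeptidase, held 20 members and 3 KO-only gains, with 144.9 kb in het against 114.3 kb in KO at P0 and 118.5 against 103.4 kb at P3.

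Itgbl1 and Fgf14, neighbours on chromosome 14, held 16 members and 1 KO-only gain each. In Itgbl1 the called length at E13.5 was 11.4 kb in het against 11.02 kb in KO, and at E16.5 38.9 against 31.4 kb. At P0 it was 63.7 and 41.0 kb, and at P3 61.5 and 32.3 kb, the widest relative gap among the 15 genes with most members at P3. In Fgf14 het had 121.2 and KO 90.3 kb at P0, and het had 98.1 and KO 69.8 kb at P3.

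Not every such gene carried less H3K9me3 in KO as a whole. The 15 genes were chosen by member bins, which are called in het and not in KO at P0 and P3. A greater called length in het at these days is therefore partly built into the choice, and the share over all genes is not given here. Called length was greater in het in 14 of the 15 genes at P0 and in 9 at P3. Before birth, 14 had more in het at E16.5 and 5 at E13.5. Macrod2, a gene for an ADP-ribose hydrolase, held 15 members and 11 KO-only gains, and KO exceeded het at P0 with 209.1 against 178.1 kb and at P3 with 208.2 against 190.0 kb. At P3 KO also exceeded het in Nell1 with 125.5 against 116.6 kb, in Ptprd with 159.2 against 140.9 kb, in Ptprt with 122.5 against 110.3 kb, in Naaladl2 with 227.5 against 217.1 kb and in Lsamp with 156.7 against 147.8 kb. The other 10 of the 15 genes held 11 to 14 members. They were Cadps2 (14 members), Cntn5 (14), Nell1 (13), Ptprd (13), Cnbd1 (12), Spag16 (12), Ptprt (11), Lrrc4c (11), Naaladl2 (11) and Lsamp (11). Cntn5, Ptprd, Ptprt, Lrrc4c and Lsamp encode neuronal adhesion or receptor phosphatase proteins. Cnbd1 and Spag16 held 0 KO-only gains, and Ptprd had the most among these 10, with 6.

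Among genes of at least 10 kb, those with the largest share of member bins were short. Zfp457, a zinc finger gene, had 4 members among 18 bins (22.2%). In it, 10.2 kb were called in P0 het against 2.31 kb in KO, and 7.08 against 1.00 kb at P3. Coq3, which encodes a methyltransferase of coenzyme Q synthesis, had 6 members among 32 bins (18.8%). No embryonic or KO peak lay in Coq3, and het peaks covered 6.42 kb at P0 and 7.52 kb at P3. Clec4n, which encodes the C-type lectin dectin-2, had 3 members among 17 bins, with 2.95 kb in het at each day and 0 in the other lists. Ccdc28a had 4 members among 22 bins and Ms4a6d had 3 among 18. Gpn3 and Ccdc110 had 2 each and lost all of them under at least 1 of 12 alternative settings.

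In the lists of silencing and germ cell genes, a gene with members held 1 or 2 of them. Of 31 genes of the piRNA pathway and germline genome defence, 2 (6.45%) held a member, both with 1 bin. They were Piwil2, which encodes a Piwi protein that binds piRNAs, and Morc1 itself. In Piwil2, het peaks covered 1.65 kb at P0 and 1.00 kb at P3, and no peak lay in the gene in the other lists. Of 22 genes of the H3K9 methylation machinery, 1 (4.55%) held a member, Kdm4c, which encodes an H3K9 demethylase. Of 42 germ cell and meiosis genes, 3 (7.14%) did, namely Tex14, a gene for a protein of germ cell bridges, with 2 bins, and Terb1 and Smc1b, genes for meiotic telomere and cohesin proteins, with 1 each. Of 19 marker genes of somatic testis cells, 0 held a member and 4 (21.1%) held KO-only gains, with 10 bins. KO-only gains lay in 1 of the 31 piRNA and genome defence genes, 3 of the 22 H3K9 genes and 1 of the 42 germ cell genes. Over all protein-coding genes 3.91% held a member and 9.19% a KO-only gain. Each member count rests on 4 member bins or fewer, so these small lists show no difference from all genes. Per 1000 body bins the first 3 lists held 1.14, 0.848 and 2.35 members, against 2.11 over all genes.

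In the Zfp zinc finger genes, many of which are transcription repressors in clusters, 11 of 388 genes (2.84%) held 35 members and 12 held 16 KO-only gains. Per 1000 body bins that was 2.65 members and 1.21 KO-only gains, against 2.11 and 3.28 over all genes. Zfp804b held 10 of the 35 members, Zfp950 held 6, Zfp457 held 4 and Zfp654 held 3. Zfp804b is a gene of 575.3 kb. In it, 135.2 kb were called in P0 het and 123.2 kb in P0 KO, and at P3 99.0 kb in het and 100.9 kb in KO. In Zfp950, 13.49 kb were called in P0 het and 3.70 kb in P0 KO, and at P3 15.6 kb in het and 7.50 kb in KO. Olfactory receptor genes, 1104 in number, held 16 members in 14 genes (1.27%) and 6 KO-only gains in 6 genes, or 7.54 and 2.83 per 1000 body bins. Of the 41 starts in member bins, 7 were olfactory receptor starts (17.1%), against 942 of all 31396 starts. Vomeronasal receptor genes held 6 members in 5 of 352 genes (1.42%) and 3 KO-only gains, or 1.65 and 0.826 per 1000 body bins.

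Long neuronal adhesion and channel genes were mixed. These genes are long, and over all genes 3.91% held a member and 9.19% a KO-only gain, with 2.11 members and 3.28 KO-only gains per 1000 body bins. The 16 contactin, Cntnap and neurexin genes, which act in axon and synapse contact, held 49 members and 32 KO-only gains, or 4.38 and 2.86 per 1000 body bins. Of the 16 genes, 11 held a member and 11 held a KO-only gain. Cntn5 had 14 members and 3 KO-only gains and Cntnap5b had 7 and 1, whereas Cntnap2 had 6 and 11. GABA and glutamate receptor genes held 45 members in 11 of 41 genes and 38 KO-only gains in 17, or 3.90 and 3.30 per 1000 body bins, with Grm8 at 9 and 7, Grm7 at 8 and 1, and Grik1 at 5 and 0. Protocadherin genes held 17 members in 3 of 67 genes, all in the large single genes Pcdh9 (7), Pcdh15 (7) and Pcdh7 (3), or 2.06 members and 0.972 KO-only gains per 1000 body bins. Cadherin genes held 19 members and 26 KO-only gains, or 3.03 and 4.14 per 1000, with Cdh12 at 8 and 3 and Cdh13 at 3 and 14. Potassium channel genes held 28 members in 11 of 92 genes and 36 KO-only gains in 22, or 2.62 and 3.37 per 1000, close to the values over all genes. Synaptic leucine-rich repeat genes held 13 and 11 (4.23 and 3.58 per 1000), ephrin receptor and semaphorin genes 13 and 10 (2.40 and 1.84), and teneurin and latrophilin genes 8 and 13 (1.82 and 2.96).

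At gene starts, members were sparser than any other set. There were 3.87 starts per 1000 member bins, 9.37 in KO-only gains, 7.44 in shared gains, 5.38 in bins with calls from het and KO at both days, and 12.8 over all autosomal bins. Of the 41 starts, 27 (65.9%) belonged to long non-coding RNA genes and 14 to protein-coding genes. Long non-coding RNA genes had 59.3% of the starts in KO-only gains, 60.2% in shared gains and 36.0% over all autosomal windows. In bins with calls from het and KO at both days they had 47.1%. The whole window lay in het peaks at P0 for 34 of the 41 member starts and at P3 for 34. KO peaks touched 2 of these windows at P0 and 0 at P3. Runs of at least 3 kb held 19 of the starts, of which 5 were protein-coding starts of 4 genes, Olfr1298, Olfr502, Hmox2 and Trim30d. Trim30d, of a family of interferon-induced TRIM genes, has its start at the edge of a 3 kb run (chr7:104505001-104508000). Its window had 0 bases in het peaks at P0 and 300 at P3.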

How the data were processed

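The data were 8 lists of H3K9me3 peaks, 1 per genotype and stage. The authors deposited peak positions only, in base pairs. The submitters' processing notes name mm10, bcl2fastq 2.20, cutadapt 1.18, Bowtie2 2.3.4.1, deepTools 3.5.0 and HOMER 4.10, without the role of each. The peak caller's settings, whether H3 libraries served as control, and the handling of the 2 samples per group are not given in the sources used here. Each list was taken as 1 call set of its group. Starts were read as counted from 0, and printed positions count from 1. Read depth is unknown, and list size can depend on it and on the calling threshold.

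Coverage of 1 kb bins was computed with Python 3.11.15, numpy 2.4.6 and pandas 2.3.3, with Wilson intervals from statsmodels 0.14.6 and figures from matplotlib 3.10.9. Bin coverage, the rule for the sets and run joining were tested on simulated data with known answers. With 1 list per group no test was made, and no p-value is given. A bin was assigned to a gene when its midpoint lay between the ends of the gene in the RefSeq table of GRCm38.p6. No column was left unassigned to a group.

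The members and gene lists were chosen with earlier results of these data known. Named were the 12 longest runs, the 15 protein-coding genes with most member bins, the 8 with the largest share of member bins among genes of at least 10 kb, protein-coding genes with a start in a member run of at least 3 kb, and up to 4 examples from each gene list. One gene that met this rule is not reported here. Long non-coding RNA genes, 1 Mb windows and the genes in them were named after their values were seen. Alternatives changed the share of the bin that had to be called, bin size and origin, the peaks used, the rules for KO and embryonic calls, run joining and gene flanks.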

Additional observations from a re-analysis of the deposited data

How the results depend on the processing

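Of the alternative values for the main results, 73 stayed within a tolerance and 26 moved. Only the number of members per KO-only gain could be labelled as reversed, and it was so under no setting. The tolerance was a factor of 1.5 for a count and the 95% Wilson interval of the reported value for a share or ratio, so counts had the wider one. Within it, the number of runs was as low as 4430 and that of runs of at least 3 kb lay between 776 and 1427, against 6292 and 1103. The number of members per KO-only gain, 1.16, was 1.12, 1.19 and 1.21 with 25%, 75% and 100% of the bin required, 1.29 with equal numbers of the longest peaks, 1.86 with no base in a peak of the other genotype, 2.16 with those peaks widened by 1 kb, and 1.21 with no base in an embryonic peak. The share of runs that touch a bin called in both genotypes after birth, 14.3%, was 12.7% with 100% of the bin, 11.9% and 15.8% with bins of 500 bp and 2 kb, 13.2% with equal numbers, 11.98% with the longer 50% of each list, 10.7% with no embryonic base, 3.80% with no base of the other genotype and 0 with widened peaks. The last 2 settings remove bins beside KO peaks by construction. Members numbered 21091 in bins of 500 bp and 5309 in bins of 2 kb. With the longer 50% of each list there were 3656 runs, 1859 of them at least 3 kb long. The share in genes was 18.3% with 100% of the bin, 17.5% with the longer 50% and 23.5% with 5 kb flanks. On chromosome X the 520 bins became 313 with 100%, 1055 and 249 with 500 bp and 2 kb bins, and 332 with the longer 50%. The cause was not tested where the setting itself does not give it. Chromosome X, the gene starts and the named genes were added to the alternatives after seeing the data. No paired analysis was possible because each group has 1 list with no replicate, and for the same reason no replicate could be left out. Depth and peak strength are unknown, so a bin without a call may hold the mark below the threshold of the authors' caller.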

Other observations

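The 10 Mb on either side of Morc1 and the gene itself on chromosome 16 held 138 member bins and 42 KO-only gains among 20199 bins, or 6.83 and 2.08 per 1000 bins. Among 115 autosomal windows of 20 Mb, the median was 4.4 members per 1000 bins and the highest value 9.25, and 11 windows reached or passed the value at Morc1. The region was chosen because it holds the targeted gene. Of 919 autosomal miRNA hairpins of the RefSeq table, 0 lay in member bins, 1 in KO-only gains and 9 in shared gains. On chromosome Y, 2 bins followed the rule for members. Other full windows of 1 Mb without a protein-coding gene were chr17:92000001-93000000, with 30 members and 1 KO-only gain, and chr10:15000001-16000000, with 28 and 4. A stand-alone run of 6 kb lay between Degs2 and Yy1 (chr12:108736001-108742000), with 5.98 kb called in P0 het, 6 kb in P3 het and 0 in the other 6 lists.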
